A study of Mus musculus with 20 samples.

Results

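The genes described here are 10 growth cone and axon outgrowth genes, *Gap43*, *Basp1*, *Marcks*, *Marcksl1*, *Stmn1*, *Stmn2*, *Stmn3*, *Dpysl3*, *Dcx* and *Tubb3*, chosen by name as abundant genes of neurite growth in the early postnatal brain. All 10 were found by symbol among the 47729 genes of the count files, and all 10 passed the filter on low counts in every comparison. Expression was measured by RNA-Seq in 20 libraries, a cortex and a hippocampus library from each of 5 WT mice (numbered 1 to 5) and 5 Ube3aOE mice (numbered 6 to 10), all of strain C57Bl/6J at postnatal day 7 (P7). Ube3aOE mice carry a bacterial artificial chromosome with extra copies of the whole *Ube3a* gene, a ubiquitin ligase gene, and its flanking sequence, so the extra expression is not tied to a promoter of 1 chosen cell type. WT neurons silence the paternal copy of the endogenous *Ube3a* gene. The transgene carries loxP sites through which Cre can end its expression, and the labels name no Cre, deletion or drug. The mice profiled carry an insertion of 2 transgene copies. The study worked mainly with its line E, whose insertion, like that of its line C, lies in chromosome 3, and the labels do not name the line of these libraries.

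Growing axons and dendrites end in growth cones, which push the membrane forward on actin and extend microtubules behind it. GAP-43, BASP1, MARCKS and the MARCKS-like protein encoded by *Marcksl1* sit at the inner face of the plasma membrane, where they bind acidic phospholipids and calmodulin, are substrates of protein kinase C and influence the actin cortex. The stathmins (*Stmn1*, *Stmn2*, *Stmn3*) sequester tubulin and destabilize microtubules, doublecortin (*Dcx*) stabilizes them in migrating and newly formed neurons, *Dpysl3* encodes CRMP4, a collapsin response mediator protein that binds the cytoskeleton, and *Tubb3* encodes the neuronal class III beta-tubulin. In rodent cortex and hippocampus these genes are high while axons grow and mostly decline as circuits mature.

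Positions below are those of GENCODE release M21 for GRCm38, and every member is annotated as protein coding. The position of *Dpysl3* (ENSMUSG00000024501) is not given here. *Gap43* (ENSMUSG00000047261) lies at chr16:42248442-42340651 on the minus strand and contains the microRNA gene *Mir6540*. *Basp1* (ENSMUSG00000045763) lies at chr15:25363277-25413764 and *Marcks* (ENSMUSG00000069662) at chr10:37133375-37138920, both on the minus strand and free of overlapping genes. *Marcksl1* (ENSMUSG00000047945, chr4:129513581-129515985) and *Stmn1* (ENSMUSG00000028832, chr4:134468320-134473843) both lie on the plus strand of chromosome 4, and *Stmn1* overlaps the small gene *Gm23634*. *Stmn2* (ENSMUSG00000027500) lies at chr3:8509360-8561606 on the plus strand, on the chromosome that also received the mapped transgene insertions. *Stmn3* (ENSMUSG00000027581) lies at chr2:181306459-181314500 on the minus strand. *Dcx* is X-linked (ENSMUSG00000031285, chrX:143855842-143933311, minus strand), and *Tubb3* (ENSMUSG00000062380, chr8:123411424-123422015, plus strand) overlaps the readthrough gene *Gm20388*, and reads that fit both can be lost in counting. Reads that align to more than 1 place were left out of the counts (10.3% to 13.7% of the reads of a library), so levels of genes with close relatives, such as the tubulins, are uncertain.

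*Basp1* and *Stmn3* are shown with the 250 bases before their start, because they had the smallest unadjusted *P* values for genotype in hippocampus among the members. The sequences are from RefSeq for GRCm38.p6, whose promoter table held 5 of the 10 members. Both run 5′ to 3′ along the minus strand, *Basp1* from chr15:25413765-25414014 and *Stmn3* from chr2:181314501-181314750, and capitals mark each GC box, GGGCGG on either strand, overlapping copies included.
Basp1: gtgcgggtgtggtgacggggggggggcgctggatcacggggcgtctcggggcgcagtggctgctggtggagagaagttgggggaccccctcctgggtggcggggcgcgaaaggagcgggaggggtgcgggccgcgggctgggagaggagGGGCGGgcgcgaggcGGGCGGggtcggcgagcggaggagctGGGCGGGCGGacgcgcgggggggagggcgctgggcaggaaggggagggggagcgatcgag
Stmn3: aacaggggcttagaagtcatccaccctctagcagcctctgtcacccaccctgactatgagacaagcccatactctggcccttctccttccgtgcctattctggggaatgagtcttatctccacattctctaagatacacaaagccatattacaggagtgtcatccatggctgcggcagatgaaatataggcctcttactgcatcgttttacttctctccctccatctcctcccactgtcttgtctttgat
The *Basp1* stretch is 78.8% G and C, more than in 98.3% of the 32851 promoters in the table (median 52.4%), and holds 30 CpG and 4 GC boxes. The *Stmn3* stretch is 48.8% G and C, with 3 CpG, no GC box and 1 E-box (CANNTG, which reads the same on both strands). Neither holds TATAAA on either strand. Of all promoters in the table, 32.7% hold a GC box, 66.2% an E-box and 12.4% TATAAA, and the median CpG count is 6. These windows were not assayed, and they stand here only as the reference sequence of the start region.

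The libraries held 14191093 to 16752326 counts on genes (median 16295195). Levels of *Ube3a* and the members are counts-per-million (CPM) of each library's total on genes past the filter, adjusted by its TMM normalization factor. Marker sums are CPM of the unadjusted total on all genes. *Ube3a*, the check of the genotype labels, was at 54.4 to 76.8 CPM in the 10 WT libraries and at 130.0 to 195 CPM in the 10 Ube3aOE libraries. The Ube3aOE libraries all lay above WT (log2 fold change 1.32 in hippocampus, 1.31 in cortex, edgeR adjusted *P* = 0.000441 and 0.000822). Region markers checked the dissections. The summed CPM of 5 neocortical markers (*Fezf2*, *Cux2*, *Rorb*, *Tbr1* and *Mef2c*) was 1490.0 to 2260.0 in cortex and 254 to 849 in hippocampus, and that of 6 hippocampal markers (*Prox1*, *Zbtb20*, *Lhx2*, *Wfs1*, *Grik4* and *Neurod1*) was 185 to 316 in cortex and 434 to 709 in hippocampus. Sex-linked counts went against the labelled sex in 2 of the 10 mice, and labelled sex entered only as a covariate in an alternative fit of genotype, in which 0 members passed. Several libraries stood apart in the marker sums. The hippocampus of WT mouse 2 had 849 CPM of neocortical markers (the other WT hippocampi 254 to 324), and that of Ube3aOE mouse 9 had 508 (the other Ube3aOE hippocampi 279 to 328). The cortices of Ube3aOE mice 8 and 9 had 1490.0 and 1550.0 (the other Ube3aOE cortices 2140.0 to 2250.0), with 316 and 280.0 of hippocampal markers. That of WT mouse 2 had 1720.0 CPM of neocortical markers (the other WT cortices 2120.0 to 2260.0), with 236 of hippocampal markers. Thalamic markers summed to 327, 395 and 712 CPM in the hippocampi of mice 4, 7 and 10 and to at most 108 in the others, and choroid plexus markers reached 2030.0 and 343 CPM in the hippocampi of mice 7 and 9 and at most 31.9 in the others. Striatal markers summed to 386 CPM in the hippocampus of mouse 9 and to 42.0 to 49.8 in the other 9. The cortex library of WT mouse 2 had the most reads not aligned (8.66%). Results are therefore given also without mice 2, 8 and 9 and without mice 4, 7 and 10, 2 alternatives chosen after the values were seen.

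Levels of different genes are compared per kilobase of merged annotated exons, a scale on which the members spanned 19.3-fold in WT cortex and 20.2-fold in WT hippocampus. *Tubb3* was highest in WT cortex at 1440.0 ± 69.0 CPM per kilobase (SD, *n* = 5), followed by *Gap43* at 1289 ± 43.8, *Stmn3* at 963 ± 36.0 and *Basp1* at 761 ± 41.3, and each of these lay above the next in every library. *Marcksl1* (607 ± 35.6), *Dpysl3* (590.0 ± 14.6) and *Stmn2* (582 ± 14.6) overlapped their neighbours in this order and could not be ranked. *Stmn1* (273 ± 15.8), *Marcks* (122 ± 13.7) and *Dcx* (74.5 ± 4.84) formed the lower end, again each above the next in every library. In WT hippocampus *Tubb3* was still highest (1031 ± 120.0), while *Gap43* (788 ± 106) overlapped *Stmn3* (815 ± 26.1), and *Stmn1* (139.9 ± 20.7), *Marcks* (99.4 ± 9.09) and *Dcx* (51.0 ± 12.4) were again the lowest. The order depends on the length used, most for *Stmn1*, *Stmn2* and *Dcx*, whose merged exons (1922, 5602 and 12647 bases) are longer than their longest transcripts (1060, 3413 and 9074 bases). Per kilobase of longest transcript, *Stmn1* was at 496 ± 28.7 in WT cortex, *Stmn2* at 956 ± 24.0, where it overlapped *Stmn3*, and *Dcx* at 103.9 ± 6.75, where it overlapped *Marcks*. On that scale *Gap43* (1383 ± 47.0) overlapped *Tubb3* as well.

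**Figure D1:**
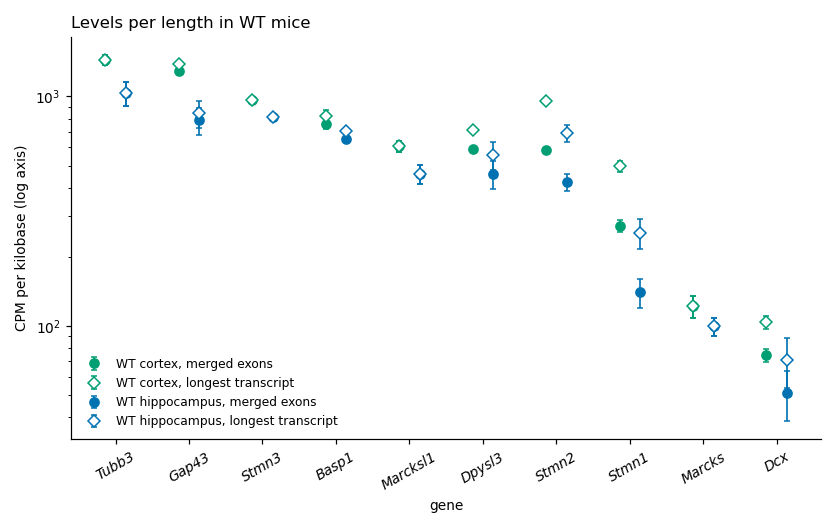
Levels of the 10 genes in WT mice, as CPM per kilobase on a log axis, for merged exons (filled circles) and the longest transcript (open diamonds), with the mean and SD of 5 mice in cortex (green) and hippocampus (blue). *Tubb3* is at the upper end in both tissues and *Marcks* and *Dcx* are at the lower end.

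All 10 members were lower in hippocampus than in cortex. The log2 fold changes over both genotypes ran from -0.95 (SE 0.07) for *Stmn1* to -0.24 (SE 0.07) for *Marcks*, and all 10 passed the test (edgeR quasi-likelihood test over 15661 genes, Benjamini-Hochberg adjusted *P* between 4.22e-09 and 0.00368). Of all genes tested, 25.6% were lower in hippocampus at this threshold. The members' median was -0.41, against -0.0053 over all genes. Together the members took 1.68% ± 0.0567 of the counts in WT cortex (SD, *n* = 5), 1.31% ± 0.101 in WT hippocampus, 1.66% ± 0.118 in Ube3aOE cortex and 1.25% ± 0.0686 in Ube3aOE hippocampus. In whole tissue, fewer cells that express a gene and less of its RNA per cell cannot be told apart. The regions were compared within mice as well. In 9 of the 10 members the hippocampus was below the cortex in all 10 mice, as were 13.4% of all genes, and in 6 members (*Gap43*, *Basp1*, *Marcksl1*, *Stmn1*, *Stmn2* and *Stmn3*) all 10 hippocampus libraries lay below all 10 cortex libraries, as they did for 3.74% of all genes. The exact sign-flip test over 10 mice gave *P* = 0.00195 for each of these 9 members, the smallest it can give, and *P* = 0.00391 for *Marcks* (two-sided, not adjusted).

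**Figure D2:**
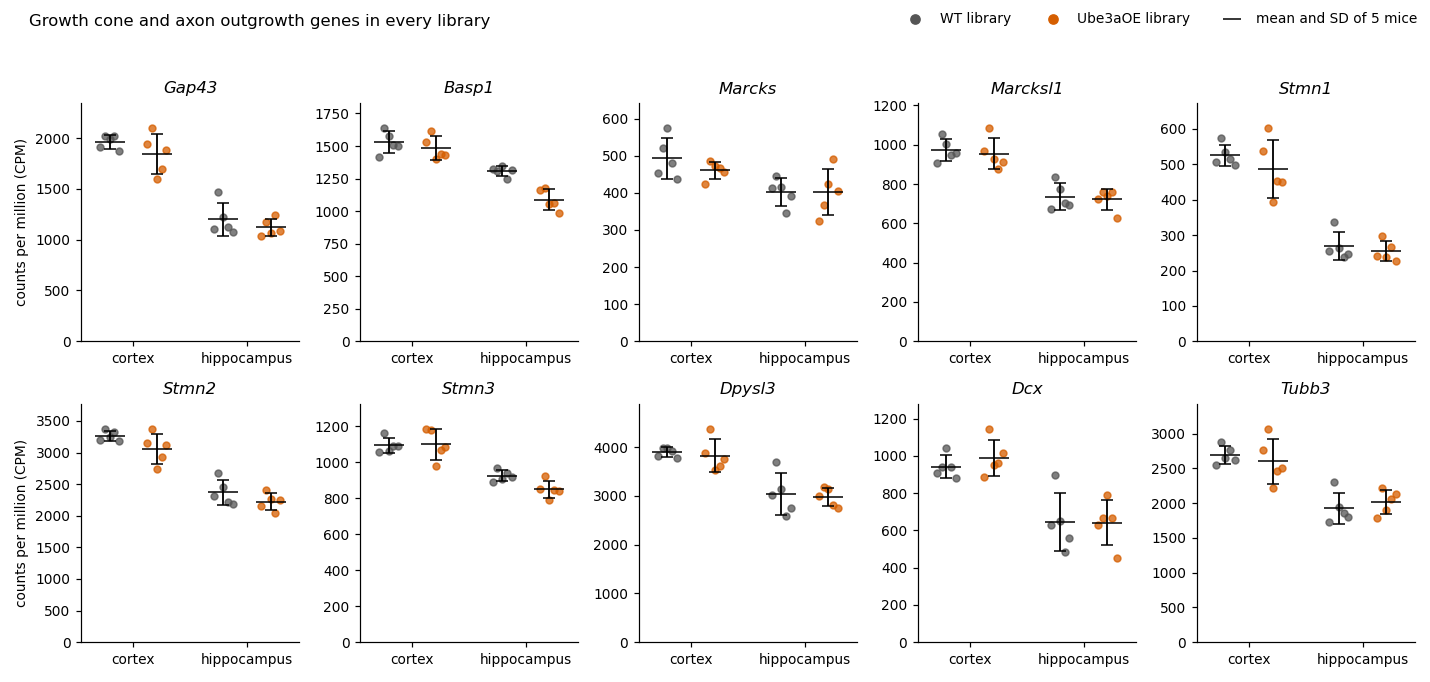
CPM of each of the 10 genes in every library, with 1 point per mouse and the mean and SD of 5 mice (black), in WT (grey) and Ube3aOE (orange) cortex and hippocampus. In 6 panels every hippocampus point lies below every cortex point, and the genotypes overlap within tissues except for *Basp1* in hippocampus.

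Among the membrane proteins, *Gap43*, a marker of growth cones, differed most between the regions. It was at 1909, 2018, 1994, 2020.2 and 1876 CPM in the cortices of WT mice 1 to 5, and at 1105, 1474, 1219.5, 1127 and 1078 CPM in their hippocampi. In Ube3aOE mice 6 to 10 it was at 1946, 2097, 1598, 1700.0 and 1885 CPM in cortex and at 1033, 1174, 1070.3, 1240.2 and 1086 CPM in hippocampus. No hippocampus reached the lowest cortex, and WT mouse 2, the hippocampus with the most neocortical marker RNA, was the highest hippocampus. The hippocampal level was 53.1% to 73.0% of the cortical level of the same mouse, and the log2 fold change was -0.71 (SE 0.06, edgeR adjusted *P* = 4.7e-09). *Marcksl1* followed, with 877 to 1084 CPM in cortex, 629 to 835 CPM in hippocampus and a log2 fold change of -0.40 (SE 0.05). *Basp1*, described with the genotypes below, had a log2 fold change of -0.34 (SE 0.04).

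*Marcks*, the founding member of its family, had the smallest difference and the least stable. It was at 454, 522, 574, 479 and 436 CPM in WT cortex and at 414, 445, 416, 346 and 391 CPM in WT hippocampus. In Ube3aOE mice it was at 423, 484, 471, 468 and 456 CPM in cortex and at 324, 366, 425, 489.9 and 404 CPM in hippocampus. The groups overlapped, and in Ube3aOE mouse 9 the hippocampus was at 105% of the cortex. Mouse 9 also had a high neocortical, striatal and choroid plexus sum in hippocampus and a low neocortical sum in cortex, whose part in this value was not tested. Without mice 4, 7 and 10, *Marcks* no longer passed (log2 fold change -0.20, SE 0.08, edgeR adjusted *P* = 0.0809), and without mice 2, 8 and 9 it did (-0.30, adjusted *P* = 0.00114).

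Among the microtubule regulators, *Stmn1*, the stathmin also found in dividing and immature cells, had the largest difference of all members. It was at 505, 574, 534, 516 and 497 CPM in WT cortex and at 254, 338, 265, 239 and 248 CPM in WT hippocampus. In Ube3aOE mice it was at 537, 602, 394, 452 and 449 CPM in cortex and at 242, 297, 239, 268 and 228 CPM in hippocampus. The highest hippocampus (338 CPM, WT mouse 2) stayed below the lowest cortex (394 CPM, Ube3aOE mouse 8). The hippocampal level was 45.0% to 60.7% of the cortical level in the same mouse. *Stmn2*, the neuron-specific stathmin of growth cones, was at 2739.5 to 3371 CPM in cortex and 2045 to 2672 CPM in hippocampus (log2 fold change -0.46, SE 0.04). *Stmn3*, its close relative, was at 982 to 1185 CPM in cortex and 791 to 969 CPM in hippocampus (-0.31, SE 0.04). For all 3 stathmins the tissues did not overlap, and by the fitted fold *Stmn1* fell by 48.3% and *Stmn3* fell by 19.1% from cortex to hippocampus.

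*Dpysl3* was at 3527 to 4369 CPM in cortex and at 2589.6 to 3698 CPM in hippocampus (log2 fold change -0.36, SE 0.06, edgeR adjusted *P* = 1.62e-05). Its only overlap came from WT mouse 2, whose hippocampus (3698 CPM) was above the lowest cortices and at 92.9% of its own cortex. *Tubb3* was at 2214 to 3067 CPM in cortex and at 1725 to 2301 CPM in hippocampus (-0.42, SE 0.06), and the hippocampi of mice 2 and 7 (2301 and 2220.2 CPM) overlapped the lowest cortex. *Dcx* varied most between mice in hippocampus. It was at 909, 940.1, 1043, 939 and 882 CPM in WT cortex and at 629, 899, 652, 481 and 561 CPM in WT hippocampus. In Ube3aOE mice it was at 887, 1143, 949.9, 960.4 and 1014 CPM in cortex and at 627, 664, 789, 665 and 454 CPM in hippocampus. The coefficient of variation of *Dcx* was 24.4% in WT and 18.8% in Ube3aOE hippocampus, against 6.50% and 9.74% in cortex. The lowest hippocampi were those of mice 4 and 10, which are among the 3 with thalamic marker RNA. The third of these, mouse 7, was at 664 CPM, above the Ube3aOE hippocampus mean of 639.7 CPM. Mouse 2 was the highest WT hippocampus. The part of such neighbouring tissue in these values was not tested. The *Dcx* log2 fold change between regions was -0.59 (SE 0.10) over all mice and ranged from -0.74 to -0.44 over the alternatives, which include both sets of mice left out.

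**Figure D3:**
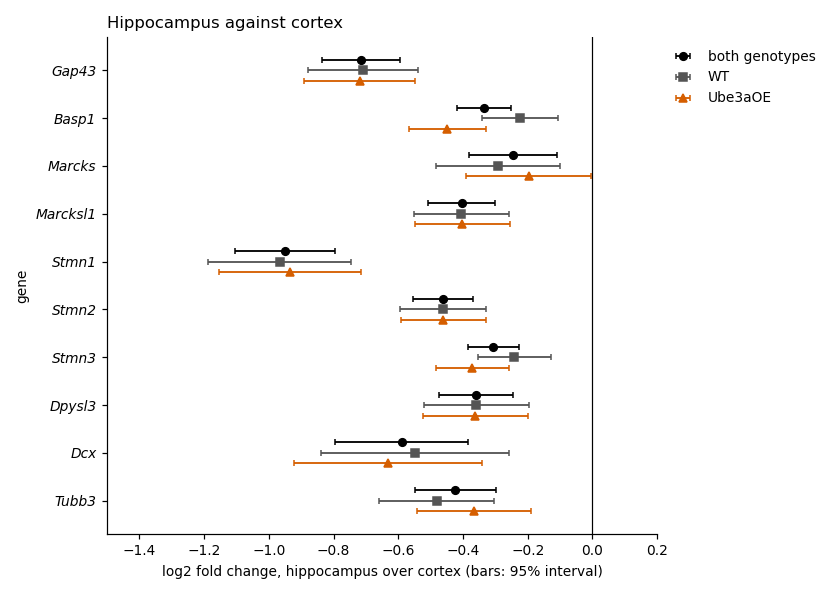
Log2 fold change of hippocampus over cortex for each gene, with 95% intervals, over both genotypes (black circles), in WT (grey squares) and in Ube3aOE mice (orange triangles). All estimates lie below 0, from *Stmn1* with the largest difference to *Marcks*, whose Ube3aOE interval comes closest to 0.

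Within the genotypes, 10 of 10 members were lower in WT hippocampus (all genes 18.3%) and 9 of 10 in Ube3aOE hippocampus (all genes 16.1%). The exception was *Marcks* in Ube3aOE mice (log2 fold change -0.20, SE 0.09, edgeR adjusted *P* = 0.108). With the mouse as a replicate block, which pairs the tissues of each animal, it passed (-0.21, edgeR adjusted *P* = 0.0355), as it did without mouse 9 (-0.27, 0.0333). In WT mice *Marcks* lost its call without mouse 3 (edgeR adjusted *P* = 0.0745), without mouse 4 (0.0703) or without mice 4, 7 and 10 (0.10), and without the last set *Dcx* in Ube3aOE mice did not pass either (-0.43, adjusted *P* = 0.0542). The log2 fold changes in WT and Ube3aOE mice were -0.71 and -0.72 for *Gap43*, -0.97 and -0.93 for *Stmn1*, and -0.48 and -0.37 for *Tubb3*. They were further apart for *Basp1* (-0.22 and -0.45) and *Stmn3* (-0.24 and -0.37), whose differences are described with the genotypes.

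**Figure D4:**
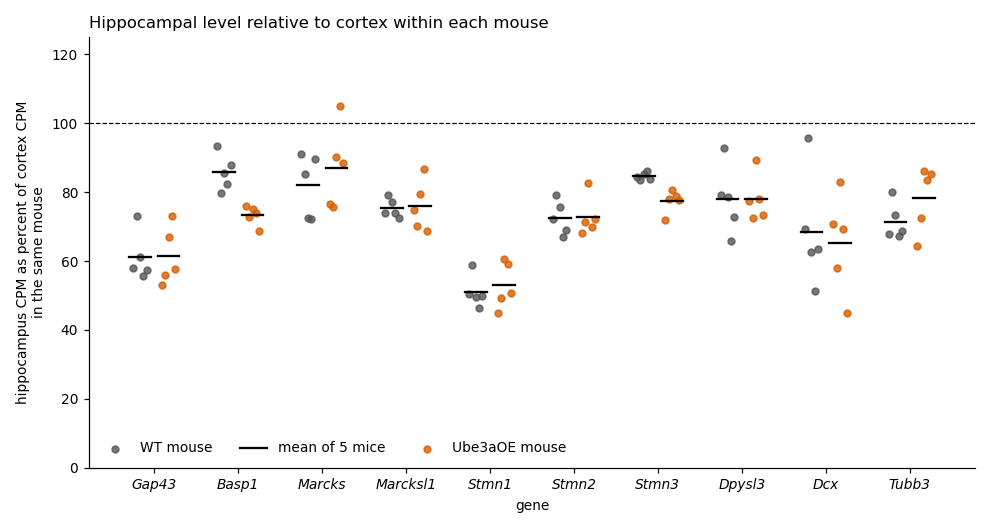
Hippocampal CPM as a percentage of cortical CPM in the same mouse, for each gene, with 1 point per WT (grey) or Ube3aOE (orange) mouse and the mean of 5 mice (black line). The dashed line marks equal levels, which only *Marcks* in Ube3aOE mouse 9 exceeds, at 105%, while for *Basp1* and *Stmn3* all Ube3aOE points lie below all WT points.

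*Basp1*, which encodes a myristoylated growth cone protein also called CAP-23, was the member with the largest difference between the genotypes. In hippocampus it was at 1327, 1305, 1349.9, 1246 and 1319 CPM in WT mice and at 1165, 1178, 1054, 1063 and 983 CPM in Ube3aOE mice. All 5 Ube3aOE hippocampi lay below all 5 WT hippocampi, a separation in this direction that 0.631% of all genes showed. The means were 1309 ± 39.0 and 1089 ± 81.7 CPM (SD, *n* = 5 each), so the Ube3aOE level was 83.1% of WT (exact permutation test of both directions, *P* = 0.00794, which is the lower limit for 5 mice against 5, not adjusted). In the fit across genes the log2 fold change was -0.27 (SE 0.06, 95% interval -0.40 to -0.14), which ranked 6 of 15220 genes by *P* value (unadjusted *P* = 0.000697) and did not pass after adjustment (edgeR adjusted *P* = 0.668). In cortex *Basp1* was at 1419, 1637, 1579.8, 1510.4 and 1499 CPM in WT mice and at 1535, 1618, 1403, 1438 and 1433 CPM in Ube3aOE mice. These groups overlapped, and the log2 fold change was -0.04 (SE 0.05, 95% interval -0.16 to 0.08).

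The *Basp1* difference in hippocampus was of similar size without the libraries that stood apart, at -0.24 (SE 0.07) without mice 2, 8 and 9 and -0.27 (SE 0.06) without mice 4, 7 and 10. Over the alternatives other than single mice left out, it ranged from -0.27 to -0.22 with adjusted *P* from 0.0842 (DESeq2) to 0.969, so it passed in none of them. Its smallest value, -0.22 (edgeR adjusted *P* = 0.811), came with the trend of each library on transcript length and GC content removed, and the longest *Basp1* transcript is 56.4% G and C (median of all genes 47.2%). Within mice, hippocampal *Basp1* was at 85.8% ± 5.30 of cortical *Basp1* in WT mice (SD, *n* = 5) and at 73.3% ± 2.87 in Ube3aOE mice. The lowest WT mouse was at 79.7% and the highest Ube3aOE mouse at 75.9%. The genotype by region interaction was tested in the fit of all 20 libraries, which does not pair the tissues of a mouse. It gave -0.22 (SE 0.08, unadjusted *P* = 0.0107) and did not pass after adjustment (edgeR adjusted *P* = 0.997). Over the alternatives other than single mice left out, the interaction ranged from -0.269 to -0.185. These include the replicate block, which pairs the tissues, and the interaction passed in none of them.

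*Stmn3* was the other member with an unadjusted *P* value under 0.05 in hippocampus. It was at 892, 969, 909, 939.6 and 918 CPM in WT hippocampus and at 854, 923, 791, 844 and 842 CPM in Ube3aOE hippocampus. The groups overlapped through mouse 7, the highest Ube3aOE hippocampus. The log2 fold change was -0.12 (SE 0.05, 95% interval -0.24 to -0.0069, edgeR adjusted *P* = 0.668), and the exact permutation test gave *P* = 0.0317. Without mouse 7 the genotypes did not overlap (exact *P* = 0.00794), without mouse 8, 9 or 10 the exact *P* was 0.0556 each, and with the length and GC trend removed it was 0.167. In cortex *Stmn3* was at 1058, 1162, 1066, 1089.7 and 1094 CPM in WT mice and at 1185, 1182, 982, 1068 and 1085 CPM in Ube3aOE mice, with a log2 fold change of 0.01 (SE 0.06). Within mice, hippocampal *Stmn3* was at 84.6% ± 1.13 of cortical *Stmn3* in WT mice (SD, *n* = 5, lowest 83.4%) and at 77.5% ± 3.25 in Ube3aOE mice (highest 80.6%), so *Stmn3* and *Basp1* both separated the genotypes by this ratio, as did 0.619% of all genes in this direction. The genotype by region interaction of *Stmn3*, also from the fit that does not pair the tissues, was -0.13 (SE 0.08, edgeR adjusted *P* = 0.997).

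No member passed the test between the genotypes, in either tissue. In hippocampus, 0 of 10 members had an adjusted *P* under 0.05 (all genes 0.00657%, which is *Ube3a* alone) and 2 of 10 an unadjusted *P* under 0.05 (all genes 7.21%). In cortex, 0 of 10 passed after adjustment (all genes 0.00669%, again *Ube3a* alone), 0 of 10 had an unadjusted *P* under 0.05 (all genes 4.44%), and no member had all Ube3aOE libraries below WT (all genes 0.375%). DESeq2 called 0 members in both tissues. Over all genes, estimates were below 0 for 7505 of 15220 in hippocampus and 7270 of 14947 in cortex, with medians of 0.0023 and 0.0033. Among the members they were below 0 for 9 of 10 in hippocampus and 8 of 10 in cortex, with medians of -0.06 and -0.04. The members share their libraries, so these counts are not independent observations.

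The 95% intervals of all 10 members lay within 0.5 of no change on the log2 scale in both tissues, as did those of 69.9% of all genes in hippocampus and 73.8% in cortex. The outermost bounds were -0.41 and 0.38 in hippocampus, both for *Dcx*, and -0.31 (*Stmn1*) and 0.22 (*Dcx*) in cortex. For *Gap43* the log2 fold change was -0.10 (SE 0.09) in hippocampus and -0.09 (SE 0.07) in cortex. For *Stmn2* it was -0.09 in both tissues (SE 0.07 and 0.06), and for *Stmn1* -0.08 (SE 0.10) and -0.11 (SE 0.10). *Dpysl3* was at -0.03 (SE 0.09) in hippocampus and -0.02 (SE 0.06) in cortex, and *Marcksl1* at -0.03 (SE 0.07) and -0.03 (SE 0.06). *Marcks* was at -0.0061 (SE 0.10) and -0.10 (SE 0.07), *Tubb3* at 0.07 (SE 0.08) and -0.04 (SE 0.08), and *Dcx* at -0.01 (SE 0.18) and 0.07 (SE 0.07). The sign turned under at least 1 alternative for 6 of these 8 members in hippocampus (not *Gap43* and *Stmn2*) and for 6 in cortex (not *Marcks* and *Stmn2*), so no direction is read from them. No test of these members passed for the genotype by region interaction either (0 of 10 after adjustment, all genes 0.0%), in edgeR or in DESeq2, and *Basp1* was the only member with an unadjusted *P* under 0.05 (all genes 3.77%).

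**Figure D5:**
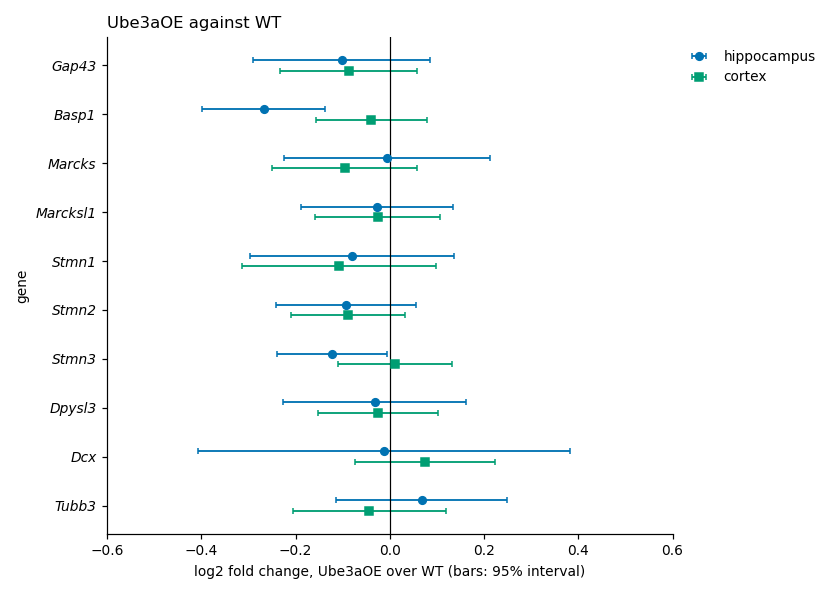
Log2 fold change of Ube3aOE over WT for each gene, with 95% intervals, in hippocampus (blue circles) and cortex (green squares). The intervals of *Basp1* and *Stmn3* in hippocampus exclude 0 before adjustment, and all intervals lie within 0.5 of no change.

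Some libraries were the highest or lowest of their group for many members. The share over all genes was not computed, so these counts describe the libraries and not a trait of the members. In WT cortex the highest was mouse 2 for 6 members, mouse 3 for 3 and mouse 4 for 1. In hippocampus, WT mouse 2 was the highest of 5 for 9 of 10 members and mouse 4 the lowest for 5. Among Ube3aOE mice, mouse 7 was the highest of 5 for 9 members in cortex and 7 in hippocampus, while mouse 8 was the lowest for 7 in cortex and mouse 10 for 5 in hippocampus. Mouse 8 had the lowest neocortical marker sum of all cortices and mouse 10 the highest thalamic sum of all hippocampi, and the part of these in the members' levels was not tested. Without mouse 7, all 5 WT cortices were above the 4 remaining Ube3aOE cortices for *Stmn2* (exact permutation test, *P* = 0.00794, not adjusted). *Dpysl3* had exact *P* = 0.0476 without that mouse. With all mice both genes overlapped in cortex (exact *P* = 0.111 and 0.683). Neither passed in cortex in any fit without a single mouse (lowest edgeR adjusted *P* 0.741 for *Stmn2* and 0.787 for *Dpysl3*). This omission was named after the values were seen, and the share of all genes that separate under it was not computed.

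The genes with the most similar profiles over the 20 libraries were named by the smallest root mean square difference of centred log2 CPM, a description that is dominated by the difference between regions. For *Tubb3* they were *Tubb5*, another beta-tubulin gene (difference 0.0459, while *Tubb3* itself varied by 0.248), and *Evl*, an actin regulator of the Ena/VASP family (0.0490). For *Dpysl3* they were its relative *Dpysl5* (0.0638) and the alpha-tubulin gene *Tuba1a* (0.0639), and *Tuba1a* was also among the nearest to *Marcksl1* (0.0633), beside *Fam195b* (0.0628). *Gap43* was nearest to *Gng3*, a neuronal G protein gamma subunit (0.0691), and *Vopp1* (0.0762). *Basp1* was nearest to the cyclophilin gene *Ppia* (0.0576) and the ubiquitin-like gene *Nedd8* (0.0622), and *Marcks* to *Pkia*, an inhibitor of protein kinase A (0.0814), and *Hdgfrp3* (0.0901). *Stmn1* was nearest to *Rhou* (0.107) and *Rab31* (0.117), *Stmn2* to *Ykt6* (0.0578) and *Mcrs1* (0.0617), and *Stmn3* to *Tonsl* (0.0465) and *Ntmt1* (0.0501). *Dcx* had the most distant neighbours, *Kcns1* (0.134) and *Frmd3* (0.138), against its own spread of 0.373.

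Other genes of the growth machinery were read from 6 lists chosen for their roles. Of all genes tested, 25.6% were lower and 25.3% higher in hippocampus, and of the 86 listed genes 47.7% were lower and 17.4% higher. A list whose share is near that of all genes holds no result about the list. Of 14 relatives of the members, 9 were lower in hippocampus and 1 was higher at an adjusted *P* under 0.05, with a median log2 fold change of -0.22. The largest falls were those of *Dclk3*, a doublecortin-like kinase (-0.69), and the stathmin *Stmn4* (-0.46), and the rise was that of *Dclk2* (0.17). Of 17 microtubule partners, 12 were lower and 0 higher (median -0.23), led by the dendritic microtubule-associated protein gene *Map2* (-0.46) and *Mapre2*, a gene of the end-binding family (-0.46). Of 18 actin partners, 7 were lower and 3 higher (median -0.08). *Ablim1* (-0.87) and *Evl* (-0.37) fell most, and *Gmfb* (0.32) and *Enah* (0.25) rose most. *Actb* was at -0.02 (SE 0.05, edgeR adjusted *P* = 0.707).

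Of 12 adhesion molecules, 4 were lower and 5 higher (median 0.10). The largest falls were those of *Negr1* (-1.05) and *Ntm* (-0.99), and the largest rises those of the contactin genes *Cntn2* (0.65) and *Cntn1* (0.34). Of 14 kinases, phosphatases and calmodulin genes that act on these proteins, 5 were lower and 3 higher (median -0.12). The JNK gene *Mapk8* (-0.42) and the calmodulin gene *Calm2* (-0.31) were lower, and calcineurin A alpha (*Ppp3ca*, 0.60) and protein kinase C alpha (*Prkca*, 0.48) were higher. Of 11 transcription factors of axon growth, 4 were lower and 3 higher (median 0.12). *Klf6* (-0.80) and *Klf7* (-0.44) were lower, and *Atf3* (0.77) and *Stat3* (0.69) were higher. Between the genotypes no gene of these 6 lists passed in either tissue (edgeR), while 10 of the 86 genes tested had an unadjusted *P* under 0.05 in hippocampus (11.6%, all genes 7.21%) and 6 of 85 in cortex (7.06%, all genes 4.44%).

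Cell type markers were compared between the regions in the same way, against 25.6% of all genes lower and 25.3% higher in hippocampus. Here too, a list near these shares holds no result about the list. Of 10 genes of progenitors and immature neurons, 9 were higher in hippocampus, led by *Eomes* (4.13) and *Igfbpl1* (3.63), and *Tbr1* was lower (-0.91). Their summed level was 488 to 629 CPM in cortex and 728 to 1310.0 CPM in hippocampus, while *Dcx*, also a gene of immature neurons, was lower in hippocampus. The list shares *Prox1* (3.21) and *Neurod1* (1.73) with the hippocampal markers and *Tbr1* with the neocortical markers. Its sum is therefore not a measure of immature neurons apart from region. Genes of mature neurons were mixed, with 3 of 10 higher (*Nefl* 1.14 and *Nefm* 1.05 the most) and 5 lower (*Nrgn* -0.66 and *Rbfox3* -0.52 the most), and they summed to 7120.0 to 8870.0 CPM in cortex and 7540.0 to 9180.0 CPM in hippocampus. Of 8 genes of inhibitory neurons, 3 were higher (*Gad2* 0.78 and *Gad1* 0.62 the most), and 4 of the 8 estimates were below 0. Their sums were 436 to 666 CPM in cortex and 447 to 1060.0 CPM in hippocampus. Astrocyte genes were higher for 5 of 6 (*Gfap* 1.31, *Slc1a3* 0.81), oligodendrocyte lineage genes for 4 of 6 (*Sox10* 0.50, *Olig2* 0.48) and microglial genes for 5 of 6 (*Cx3cr1* 0.49, *C1qa* 0.47). Their sums were 1030.0 to 1780.0 CPM in cortex and 1870.0 to 2570.0 CPM in hippocampus for astrocytes, 341 to 466 and 378 to 621 CPM for the oligodendrocyte lineage, and 79.8 to 131 and 101 to 180.0 CPM for microglia. Of 6 endothelial and mural genes, 0 passed, also before adjustment (edgeR). The part of these cell types in the lower levels of the members was not tested.

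The dissection markers completed this comparison. Choroid plexus genes were higher in hippocampus for 5 of the 5 tested (*Ttr* 6.89, *Otx2* 5.67), thalamic genes for 3 of 4 (*Tcf7l2* 5.29, *Lef1* 1.75), with *Rorb*, which is also neocortical, lower (-2.42). Of 5 striatal genes, *Drd2* was higher (1.40) and *Drd1* lower (-1.35). Neocortical markers were lower for 4 of 5 (*Mef2c* -3.05, *Rorb* the next) and hippocampal markers higher for 5 of 6 (*Prox1* 3.21, *Zbtb20* 2.03). Between the genotypes no marker passed. In hippocampus the estimates were above 0 for 7715 of all 15220 genes, and each marker list except 3 had estimates on both sides of 0. Those 3, named after their values were seen, had all estimates above 0. They were 5 of 5 choroid plexus markers (*Ttr* 5.13, unadjusted *P* = 0.0350, edgeR adjusted *P* = 0.668), 5 of 5 striatal markers (median 1.01) and 6 of 6 oligodendrocyte lineage genes (median 0.16). For the choroid plexus, the hippocampi of mice 7 and 9 held most of that RNA, and for the striatum that of mouse 9 did. *Basp1* was at 1178 and 1063 CPM in the hippocampi of mice 7 and 9 and at 983 to 1165 CPM in the other Ube3aOE hippocampi. The part of such neighbouring tissue in the *Basp1* levels was not tested.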

How the data were processed

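RNA was extracted from P7 cortex and hippocampus with an RNeasy kit and sequenced after a TruSeq Stranded mRNA preparation. The authors deposited 1 table of raw counts per library, made, per the submitters' processing notes, with HISAT2 2.1.0 and HTSeq 0.11.2 on GRCm38 (mm10); the annotation and strand setting are not given in the sources used here. The 5 lines of each file that name no gene held 18.8% to 30.3% of reads and were left out of all totals.

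Counts were tested with edgeR 4.0.16 (TMM factors, filterByExpr, robust quasi-likelihood F test, R 4.3.3) over all genes that passed the filter, with Benjamini-Hochberg adjustment: 15220 genes in hippocampus and 14947 in cortex for genotype, and 15661 in a fit of all 20 libraries for region and the interaction. "Passed" means an adjusted *P* under 0.05. Levels of the members and *Ube3a* are CPM on the total of the genes that passed the filter in the fit of all 20 libraries, adjusted by TMM factors. Sums of listed genes are CPM on the unadjusted total of all gene counts. Single genes were also tested with an exact permutation test (5 mice against 5) or an exact sign-flip test (10 mice), both two-sided. DESeq2 1.42.0, other normalizations, no filter, removal of each library's trend on length and GC (spline, 5 degrees of freedom), labelled sex as a covariate, a replicate block and leaving out each mouse were alternatives. The fits were tested on simulated data.

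The labels give each mouse 1 number for both tissues, so the numbers pair the tissues of an animal; deviations from group means correlated above 0.1 in 9 of 10 mice (median 0.216, mouse 4 at -0.0367). Libraries of the same group are from separate mice, and the 20 libraries come from 10 mice.

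Genes were named by rule: the 10 members, *Ube3a*, listed genes that passed for genotype, for region up to 2 genes per list with the largest rise and 2 with the largest fall, and the 2 nearest profiles of each member. *Actb*, listed genes named for genotype and the notes on single libraries were chosen after their values were seen. Members and lists were chosen with earlier results of these data known. Some listed genes are not reported here and were left out of their lists' counts and sums.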

Additional observations from a re-analysis of the deposited data

Results flagged for a closer look

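Of 44 groups of 5 libraries searched (each member, *Ube3a* and 4 groups), 2 held a library far from the other 4. At about 1 in 20 groups, 2.2 are expected by chance, so finding 2 is no more than chance gives. *Stmn1* was at 338.1 CPM in the hippocampus of WT mouse 2, against 264.9 CPM in the next highest WT hippocampus, a gap of 0.738 of the group's range. That library also had the most neocortical marker RNA of the hippocampi (849 CPM), whose part in the value was not tested. *Marcksl1* was at 629.2 CPM in the hippocampus of Ube3aOE mouse 10, against 723.8 CPM in the next lowest, a gap of 0.719 of the range. That library had the highest sum of thalamic markers (712 CPM), whose part was not tested.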

How the results depend on the processing

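The counts of members that passed for genotype and for the interaction stayed at 0 under every alternative run, and that for region at 10 except without mice 4, 7 and 10 (9, *Marcks* lost). Region in WT gave 9 to 10 without single mice (9 without mouse 3 or 4) and 9 without mice 4, 7 and 10. Region in Ube3aOE mice gave 9 to 10 without single mice (10 without mouse 9), 10 with the replicate block, with the length and GC trend removed and without mice 2, 8 and 9, and 8 without mice 4, 7 and 10. The replicate block changed no other call on the members. The sets of mice 2, 8 and 9 and of mice 4, 7 and 10 were chosen after seeing the data, and the causes of the changes below were not tested. Exact tests under 0.05 in hippocampus went from 2 to 1 with the length and GC trend removed and ranged from 1 to 2 without single mice. In cortex they ranged from 0 to 2. With the longest transcript as the length, the span of levels fell to 13.9-fold in WT cortex and 14.5-fold in WT hippocampus.

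Genotype estimates near 0 turned sign. In hippocampus with the trend removed, *Marcksl1* was at 0.028 and *Stmn1* at 0.027. Without mice 2, 8 and 9, hippocampal *Stmn1* was at 0.025, *Dpysl3* at 0.051 and *Dcx* at 0.0048, and cortical *Gap43* at 0.017, *Basp1* at 0.023, *Marcksl1* at 0.051, *Stmn1* at 0.042, *Dpysl3* at 0.042 and *Tubb3* at 0.071. Without mice 4, 7 and 10, hippocampal *Marcksl1* was at 0.00017, *Dcx* at 0.023 and *Tubb3* at -0.014, and cortical *Stmn3* at -0.020 and *Dcx* at -0.015. Without single mice, the hippocampal estimates ranged from -0.083 to 0.068 for *Marcks*, -0.055 to 0.028 for *Marcksl1*, -0.14 to 0.020 for *Stmn1*, -0.085 to 0.053 for *Dpysl3* and -0.10 to 0.14 for *Dcx*, and the cortical ones from -0.074 to 4.3e-05 for *Marcksl1*, -0.016 to 0.046 for *Stmn3* and -0.11 to 0.0062 for *Tubb3*. Hippocampal *Basp1* ranged from -0.30 to -0.23.

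Totals near 16295195 counts (the median) put at least 3807 counts on each member in a library, so the spread between mice, not counting error, sets the width of the intervals.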
